A study of Mus musculus with 11 samples.

Results

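Imprinted genes are expressed mainly from a single parental allele, and 10 of them were examined for the repressive histone modification H3K27me3 in the embryonic mouse forebrain. They were *Igf2*, *H19*, *Grb10*, *Dlk1*, *Meg3*, *Peg3*, *Mest*, *Plagl1*, *Phlda2* and *Nnat*, chosen by name from 53843 annotated genes on chromosomes 1 to 19 and X. For each gene, H3K27me3 peaks were taken over the gene body and 10 kb on either side, a stretch called its window here. The modification had been profiled by CUT&Tag, in which an antibody directs a transposase to the modified nucleosomes and the DNA around them is cut and tagged. The tissues were the medial (MGE), caudal (CGE) and lateral (LGE) ganglionic eminences, the ventral neurogenic zones of the forebrain, and the cortex (CTX). All 11 samples came from wild-type embryos of the inbred strain C57BL/6J, 2 of them from MGE and 3 from each of CGE, LGE and CTX. Age was not labelled by sample. The protocol names embryonic days 12.5 and 14.5, and the study's text places CUT&Tag at 12.5. The samples of a region had been merged before peaks were called, so each region is represented by 1 list, there is no replicate error, and no difference below was tested.

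Imprinted genes lie in clusters, where DNA methylation laid down in the egg or the sperm marks the parental origin of a control region. H3K27me3 is written by Polycomb repressive complex 2, and it is known at the silent allele of some imprinted genes and at many unmethylated CpG-rich promoters of developmental genes on both alleles. Several of the genes act on growth, and a number of them are expressed in the developing brain. In an inbred strain the parental alleles cannot be separated, and in dissected tissue a peak from 1 allele in every cell, from both alleles in a part of the cells, or from a minority cell type cannot be told apart.

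The lists held 15384 peaks in MGE, 16851 in LGE, 19196 in CGE and 18785 in CTX, and covered 24.5 to 32.9 Mb. MGE had the fewest peaks and the lowest median −log10 q (3.38, against 3.81 to 4.61), where q is the peak caller's p-value adjusted for the number of candidate regions. The labelled tissue was checked on regional transcription factor genes, over the gene body and the 2 kb before it. The cortical genes *Emx1* (28.7% in CTX, 47.6% to 48.3% elsewhere) and *Neurog2* (46.2% in CTX, 56.4% to 82.7% elsewhere) had least coverage in CTX. *Lhx2* was covered over 38.7% in MGE, 18.6% in LGE, 32.9% in CGE and 16.9% in CTX, and *Lhx6*, a gene of MGE-derived interneurons, over 44.1% in MGE and 45.4% to 55.3% elsewhere. *Nkx2-1*, the defining gene of the MGE, was covered alike in all lists (83.4% to 84.5%) and did not separate MGE from the rest.

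Peaks were found at most of the imprinted genes, and largely at the same ones in every region. At least 1 base of the window was covered for 8 of 10 genes in MGE, where 27.6% of all annotated genes were, for 8 in LGE (28.6% of all genes), 8 in CGE (30.2%) and 9 in CTX (30.4%). Among protein-coding genes alone, these shares were 43.3% in MGE, 44.7% in LGE, 46.0% in CGE and 47.2% in CTX. All 4 lists had a peak at *Igf2*, *H19*, *Grb10*, *Dlk1*, *Meg3*, *Peg3*, *Plagl1* and *Phlda2*, 8 of the 10 genes, against 22.1% of all genes. This share was not computed over protein-coding genes alone. *Mest* had a peak in CTX alone, and *Nnat* had none in any list. The windows of the 10 genes were wider than most, with a median of 40.5 kb (21.6 to 128 kb) against 23.5 kb over all genes and 37.4 kb over protein-coding genes, and a wider window has more chances to meet a peak.

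The share of the window under peaks set the genes apart more than the regions did. Its median over the 10 genes was 3.63% in MGE, 5.70% in LGE, 7.92% in CGE and 6.20% in CTX, and over all genes it was 0% in each list. *Igf2*, *Dlk1*, *Phlda2* and *Grb10* had the most coverage in every list, between 10.8% and 27.5%, and the other genes stayed at 8.58% or less. This order holds for flanks of 10 kb and changes with other flanks. Fewer of the 10 genes met a call on the promoter. With a promoter taken as the 2 kb upstream of the gene's annotated 5′ end and called marked when at least 50% of it lay under peaks, 2 of the 10 genes were marked in each list. The share of all genes marked was 4.07% in MGE, 4.14% in LGE, 5.19% in CGE and 4.55% in CTX. For promoters, the share over protein-coding genes alone was not computed. By this call only *Grb10* was marked in all 4 lists, and the share of all genes so marked was not computed. With 2 kb either side of the 5′ end, *Grb10*, *Dlk1* and *Phlda2* were marked in all 4. *H19* was marked in CGE, LGE and CTX and *Meg3* in MGE. The gene's 5′ end is only 1 of several starts at these genes, which carry 3 to 11 distinct transcript starts each. The count depends on that choice. With the best covered 5′ end of any transcript, 4 genes were marked in MGE, 4 in LGE, 6 in CGE and 6 in CTX. *Igf2*, *Grb10* and *Dlk1* were then marked in all 4 lists.

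**Figure D1:**
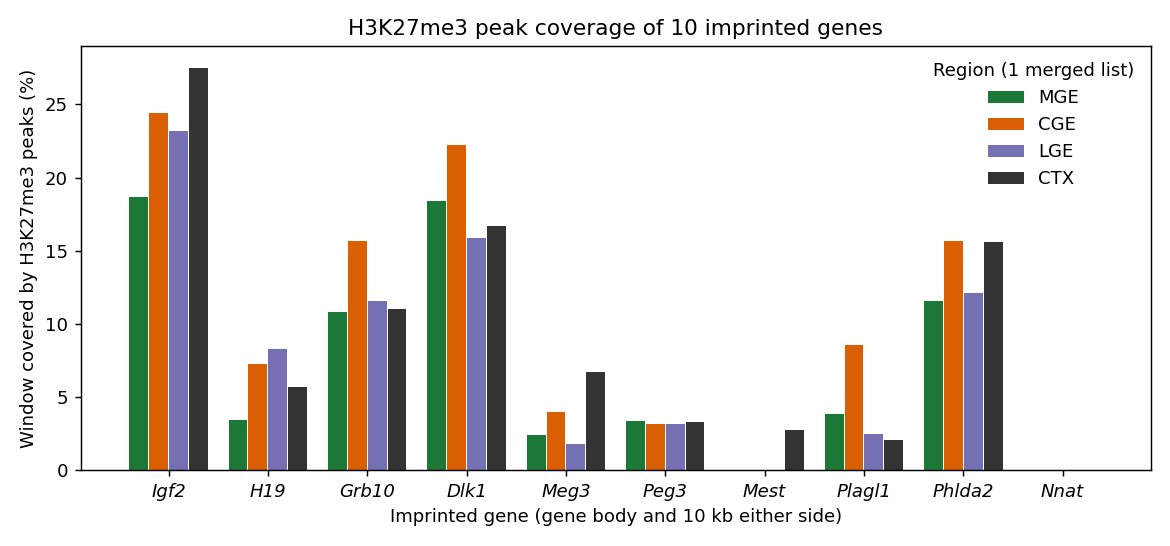
Percentage of each gene's window (gene body and 10 kb either side) covered by H3K27me3 peaks, with 1 bar per region and no error bars, since each region is 1 merged list. *Igf2*, *Dlk1*, *Phlda2* and *Grb10* stand at 10.8% or more in every list, *Mest* has a bar in CTX only (2.76%) and *Nnat* has none.

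*Igf2*, which encodes insulin-like growth factor 2, a fetal growth factor expressed from the paternal allele in most tissues, had the largest share of its window covered in each list. The gene lies on chromosome 7 (142650766 to 142666816, minus strand, GRCm38). Peaks covered 18.7% of its window in MGE, 23.2% in LGE, 24.4% in CGE and 27.5% in CTX, so MGE was lowest and CTX highest. Few genes were covered as much: the share of all genes with at least this coverage was 2.07% in MGE, 1.53% in LGE, 1.72% in CGE and 1.18% in CTX. No base of the upstream 2 kb was covered. The peaks lay inside the gene, over 2 stretches found in all 4 lists, at 0.0730 to 2.96 kb and at 5.53 to 12.8 kb downstream of the 5′ end. In MGE, CGE and LGE the longer stretch was divided into 2 peaks, and in CTX it was a single peak of 7311 bases (chr7:142653973-142661283). Over these peaks lie the neighbouring annotations *Gm49394*, a coding gene model on the same strand, *Igf2os*, the antisense RNA of *Igf2*, and *Mir483*, a microRNA gene inside *Igf2*. The strongest *Igf2* peak had a −log10 q of 29.8 in MGE, 39.2 in LGE, 60.4 in CGE and 35.0 in CTX. Fold enrichment, the peak caller's ratio of signal to local background, was low within the lists all the same, at 1.82 to 2.33 over all *Igf2* peaks (5.13 to 20.2 percentile of its list).

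RefSeq gives 4 promoters for *Igf2*, each as 250 bases before and 50 after a start, and they differed in coverage. Promoter 1, at the gene's 5′ end, had no covered base. Promoter 2, at 5.54 kb, was covered over 20.7% to 22.3% and lay across the edge of the peaks. Promoter 3, at 8.01 kb, was covered over 100% in all lists, and promoter 4, at 9.32 kb, over 100% in CGE, LGE and CTX and 0% in MGE, where the peak ended short of it. Promoter 3 had 24 CpG dinucleotides and a CpG observed over expected ratio of 0.90, the number relative to that given by its C and G content, and promoter 4 had 7 and 0.25. The sequences of this pair are shown 5′ to 3′ on the gene's strand, from RefSeq on GRCm38.p6, with CpG in capitals here and below, because the regions differed at one and not at the other.
Igf2 promoter 3, chr7:142658755-142659054, minus strand: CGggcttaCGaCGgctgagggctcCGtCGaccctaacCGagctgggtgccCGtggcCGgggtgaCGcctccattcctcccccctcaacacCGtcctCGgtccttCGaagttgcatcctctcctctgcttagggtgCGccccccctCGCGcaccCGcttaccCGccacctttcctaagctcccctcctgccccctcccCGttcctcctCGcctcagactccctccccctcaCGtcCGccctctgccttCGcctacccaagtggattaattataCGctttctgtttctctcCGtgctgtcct
Igf2 promoter 4, chr7:142657447-142657746, minus strand: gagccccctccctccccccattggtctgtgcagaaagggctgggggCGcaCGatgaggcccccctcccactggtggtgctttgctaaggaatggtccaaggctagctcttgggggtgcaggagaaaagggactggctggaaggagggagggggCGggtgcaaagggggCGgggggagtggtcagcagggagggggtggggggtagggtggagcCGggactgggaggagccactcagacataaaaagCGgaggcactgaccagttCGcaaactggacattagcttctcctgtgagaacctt

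*Dlk1* encodes a transmembrane protein with EGF-like repeats related to the Notch ligands, and is expressed from the paternal allele. The gene lies on chromosome 12 (109452823 to 109463336, plus strand). Coverage of the window was 18.4% in MGE, 15.9% in LGE, 22.2% in CGE and 16.7% in CTX. The CGE value was highest, in the list with the most covered bases, but with lists of equal covered bases or equal numbers of peaks it was 16.7%, below the 18.4% of MGE. A peak over the start contained 8 of the 9 annotated transcript starts in every list. It ran from between −0.733 and −0.650 kb to between 2.01 and 2.12 kb, counted from the 5′ end with upstream positions negative, with a −log10 q of 23.8 in MGE, 34.9 in LGE, 38.5 in CGE and 36.9 in CTX. Another peak began at 6.32 to 6.59 kb, over the remaining transcript start. Its −log10 q was 7.74 in MGE, 31.2 in LGE, 20.2 in CGE and 30.8 in CTX. Its fold was 2.19, 2.80, 2.42 and 2.33 in the same order. MGE was thus lowest by both, and LGE and CTX were alike by q but not by fold. A weak peak from −8.25 to −6.59 kb was present in MGE (−log10 q 1.32) and CGE (1.26) only. The *Dlk1* promoter was covered over 100% in all 4 lists although its CpG ratio was no more than 0.43, with 9 CpG in 300 bases.
Dlk1 promoter 1, chr12:109452573-109452872, plus strand: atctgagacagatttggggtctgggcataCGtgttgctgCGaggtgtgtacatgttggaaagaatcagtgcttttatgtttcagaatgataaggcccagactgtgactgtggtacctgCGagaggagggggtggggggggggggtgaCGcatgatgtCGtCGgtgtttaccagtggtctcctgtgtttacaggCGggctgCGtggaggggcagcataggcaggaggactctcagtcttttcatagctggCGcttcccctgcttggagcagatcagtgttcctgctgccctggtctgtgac

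*Phlda2* encodes a small protein with a pleckstrin homology domain that restrains placental growth and is expressed from the maternal allele. It lies on chromosome 7 (143501545 to 143503150, minus strand) and had the strongest peaks of the 10 genes. A single peak spanned the whole gene in each list. Its −log10 q was 65.5 in MGE, 93.7 in LGE, 135 in CGE and 81.3 in CTX, at the 97.8 to 99.4 percentile of its list, and its fold enrichment was 3.89, 3.69, 3.47 and 3.40 in the same order. The peak began at −0.102 kb in MGE and −0.101 kb in LGE, but at −0.878 kb in CGE and −0.863 kb in CTX. Coverage of the upstream 2 kb followed, at 5.10% in MGE, 5.05% in LGE, 43.9% in CGE and 43.1% in CTX, so the regions fell into 2 pairs by where this edge lay. CGE and CTX were also the lists with the most covered bases (32.9 and 31.2 Mb, against 24.5 Mb in MGE and 26.4 Mb in LGE). Whether the edge follows the length of the list was not tested. The downstream edge lay at 2.41 to 2.52 kb in all lists. The RefSeq *Phlda2* promoter had 26 CpG and a CpG ratio of 0.82, and it was covered over 100% in every list. Of the bases covered in any list at *Phlda2*, 74.1% were covered in all 4, the highest share of the genes. *Slc22a18*, the coding gene next to it, had no covered base inside the *Phlda2* window.
Phlda2 promoter 1, chr7:143502475-143502774, minus strand: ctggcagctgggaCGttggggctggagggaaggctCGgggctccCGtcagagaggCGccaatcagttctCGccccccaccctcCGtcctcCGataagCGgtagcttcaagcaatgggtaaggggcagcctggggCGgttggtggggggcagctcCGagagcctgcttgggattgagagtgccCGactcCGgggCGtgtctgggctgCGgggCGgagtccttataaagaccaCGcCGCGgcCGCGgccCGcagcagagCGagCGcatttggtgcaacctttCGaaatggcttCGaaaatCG

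*Grb10* encodes an adaptor protein that binds the insulin and IGF1 receptors. It is expressed from the maternal allele in most tissues and from the paternal allele in neurons, where transcription begins at other promoters. It lies on chromosome 11 (11930508 to 12038683, minus strand) and has the longest window, 128 kb. Peaks covered 10.8% of it in MGE, 11.6% in LGE, 15.7% in CGE and 11.0% in CTX, with CGE above the rest. In CGE and LGE there were 9 peaks, in CTX 8 and in MGE 4. The upstream 2 kb was covered over 100% in all lists by a peak that ran from between −2.61 and −2.38 kb to between 0.907 and 0.958 kb, with a −log10 q of 10.5 in MGE, 10.8 in LGE, 21.7 in CGE and 14.2 in CTX. Between this peak and the next, which began at 2.85 to 2.96 kb, was a gap that held the RefSeq *Grb10* promoter 1, whose start lies at 1.26 kb. It had the highest CpG content of the 16 promoters, with 45 CpG, a CpG ratio of 0.97 and 80.0% GC, and no covered base in any list. *Grb10* promoter 2, at 10.7 kb, had 9 CpG and a CpG ratio of 0.45, and was covered over 100% in MGE, 30.0% in LGE, 100% in CGE and 69.3% in CTX.
Grb10 promoter 1, chr11:12037371-12037670, minus strand: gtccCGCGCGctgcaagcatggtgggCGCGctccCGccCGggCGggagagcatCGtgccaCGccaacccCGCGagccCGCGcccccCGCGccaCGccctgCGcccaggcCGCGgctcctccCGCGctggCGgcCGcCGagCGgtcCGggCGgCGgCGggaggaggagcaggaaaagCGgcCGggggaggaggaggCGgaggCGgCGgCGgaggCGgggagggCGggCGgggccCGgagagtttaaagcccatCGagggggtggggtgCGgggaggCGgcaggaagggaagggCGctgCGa
Grb10 promoter 2, chr11:12027922-12028221, minus strand: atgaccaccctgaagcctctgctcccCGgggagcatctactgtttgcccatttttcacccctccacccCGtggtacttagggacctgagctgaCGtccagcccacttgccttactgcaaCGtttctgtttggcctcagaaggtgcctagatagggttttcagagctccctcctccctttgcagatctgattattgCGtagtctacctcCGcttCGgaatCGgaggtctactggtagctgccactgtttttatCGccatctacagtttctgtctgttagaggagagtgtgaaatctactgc

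The peaks in the upstream part of *Grb10* were of low enrichment in all lists, with folds of 1.44 to 2.15 from −2.61 to 16.9 kb, which is at the 9.60 percentile of the list or lower. Those at the far end of the gene were of another kind. A stretch at 94.2 to 96.2 kb and one at 99.9 to 102 kb had folds of 2.52 to 2.81 in CGE, LGE and CTX and no peak in MGE. Their −log10 q was 3.15 to 5.17 (39.8 to 53.1 percentile of the list), and the list that lacked them was the shortest. When each list was cut down to its strongest peaks, to the same total length as in MGE, *Grb10* coverage was 10.8% in MGE, 10.6% in LGE, 14.0% in CGE and 10.7% in CTX. A short stretch at 19.7 to 20.2 kb was likewise present in CGE, LGE and CTX and missing from MGE. At 59.3 to 62.4 kb, 2 small peaks occurred in CGE alone.

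**Figure D2:**
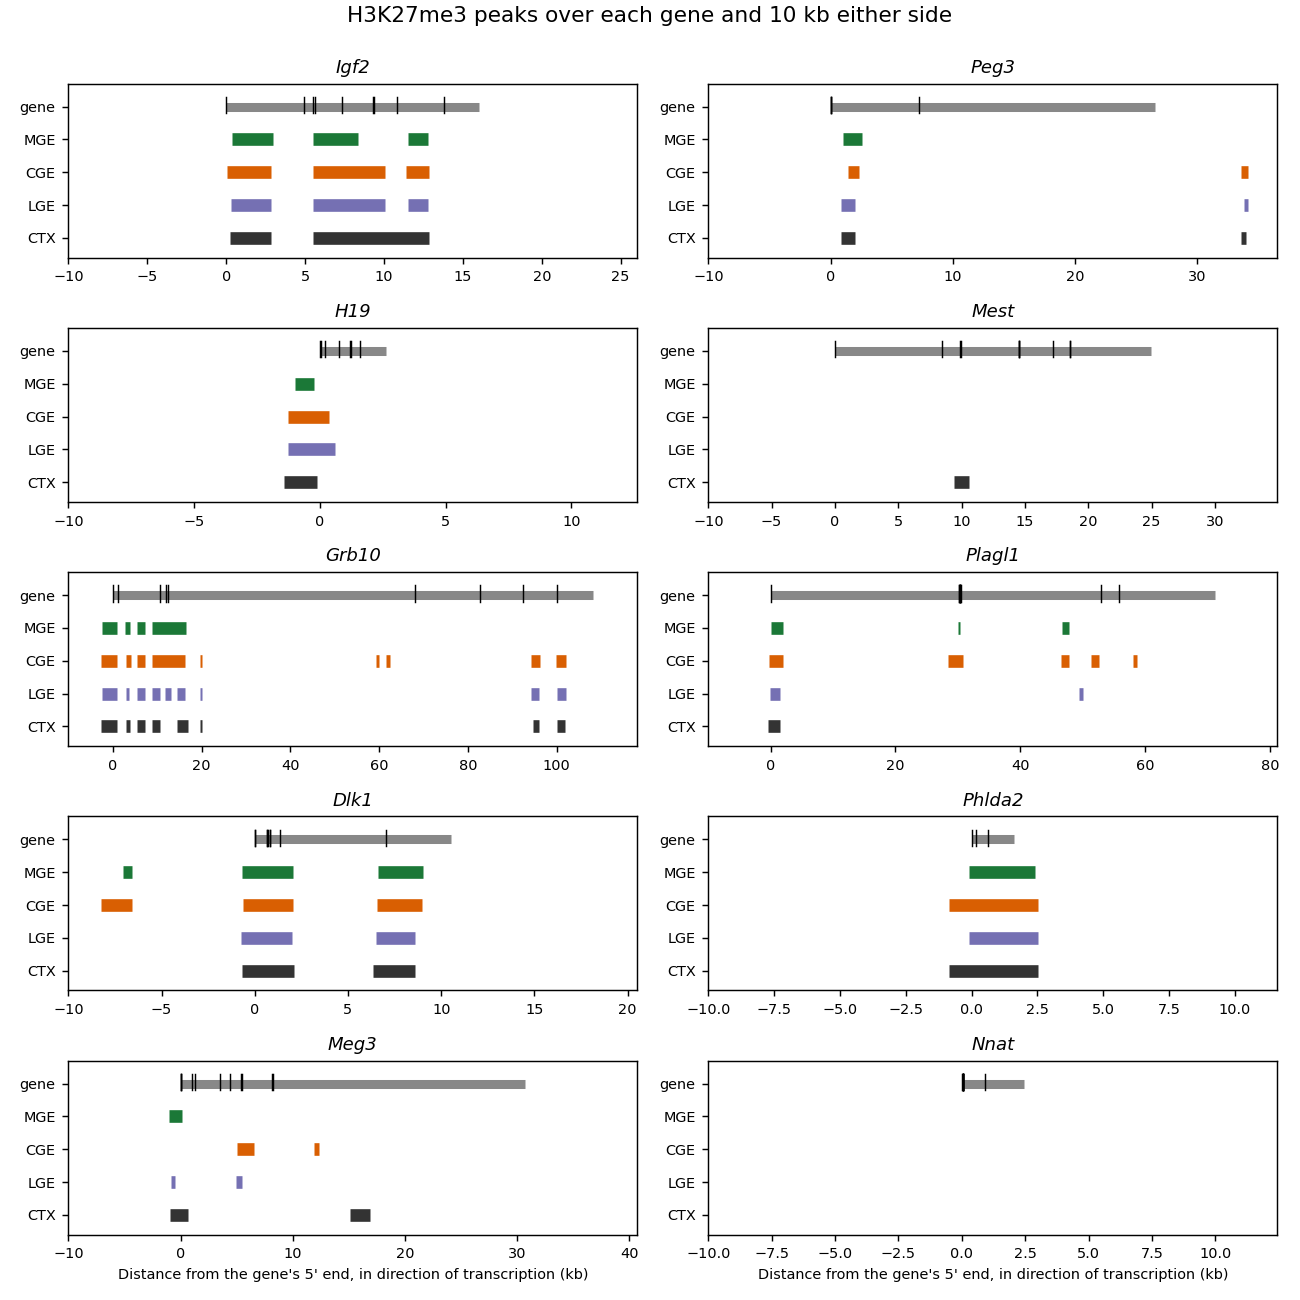
Peaks of each list over the 10 windows, drawn to scale within each panel, with distance from the gene's annotated 5′ end in kb and in the direction of transcription on the horizontal axis. The grey bar is the gene body, its ticks are annotated transcript starts, and coloured bars are peaks. The peaks at the 5′ ends of *Dlk1*, *Phlda2*, *Plagl1* and *Grb10* recur in all 4 lists, whereas those inside *Meg3* and *Plagl1* change place from list to list.

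*Plagl1*, also known as *Zac1*, encodes a zinc finger transcription factor that slows the cell cycle and is expressed from the paternal allele. It lies on chromosome 10 (13060504 to 13131694, plus strand). Coverage of the window was 3.82% in MGE, 2.48% in LGE, 8.58% in CGE and 2.07% in CTX, highest in CGE by a wide margin, and it was 6.63% in CGE with lists of the same total length. A sharp peak at the gene's 5′ end, from no further upstream than −0.360 kb to between 1.50 and 1.93 kb, was the most enriched of all peaks at the 10 genes. Its fold was 4.63 in MGE, 5.57 in LGE, 4.74 in CGE and 4.45 in CTX (96.0 to 98.2 percentile), and its −log10 q was 28.1, 62.7, 87.1 and 42.6 in the same order. The regions parted further along. At 28.4 to 30.9 kb, where 8 of the 11 transcript starts lie, CGE had a peak of 2500 bases (chr10:13088899-13091398, −log10 q 6.39, fold 2.85) and MGE one of 387 bases inside it (1.65 and 2.73), and LGE and CTX had none. RefSeq places its *Plagl1* promoter in this stretch, at 30.3 kb, with 26 CpG and a CpG ratio of 0.70. It was covered over 85.0% in MGE, 100% in CGE and 0% in both LGE and CTX. A peak at 46.6 to 47.8 kb also occurred in MGE (−log10 q 1.91) and CGE (3.30) only. Apart from these, CGE had peaks of its own at 51.3 to 52.6 kb and at 58.1 to 58.7 kb, and LGE had one at 49.4 to 50.1 kb.
Plagl1 promoter 1, chr10:13090582-13090881, plus strand: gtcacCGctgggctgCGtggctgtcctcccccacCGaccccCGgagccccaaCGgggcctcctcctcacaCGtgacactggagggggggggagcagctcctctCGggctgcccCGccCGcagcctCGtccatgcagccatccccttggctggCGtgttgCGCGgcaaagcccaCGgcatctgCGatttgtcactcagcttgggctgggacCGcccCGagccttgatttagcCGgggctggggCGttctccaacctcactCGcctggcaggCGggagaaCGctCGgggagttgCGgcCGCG

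*Peg3* encodes a large zinc finger protein expressed from the paternal allele. It lies on chromosome 7 (6703892 to 6730431, minus strand), and its coverage hardly varied, at 3.35% of the window in MGE, 3.13% in LGE, 3.16% in CGE and 3.28% in CTX. The upstream 2 kb and the RefSeq promoter had no covered base. The peak that recurred in all lists lay in an intron, between 0.870 and 2.56 kb downstream of the 5′ end. It was weak, with a −log10 q of 1.85 in MGE, 3.05 in LGE, 3.14 in CGE and 2.20 in CTX and a fold of 2.85 to 3.27. A further peak at 33.6 to 34.1 kb, past the end of the gene, appeared in CGE, LGE and CTX. In CGE and LGE it touched *Zim1*, the imprinted zinc finger gene that follows *Peg3*. With peaks limited to a q-value under 0.001, *Peg3* lost all coverage in MGE and kept 2.46% in LGE, 2.00% in CGE and 0.819% in CTX.

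The noncoding genes *H19* and *Meg3* are expressed from the maternal allele and lie in the same clusters as *Igf2* and *Dlk1*. *H19* (chromosome 7, 142575529 to 142578143, minus strand) had 1 peak in every list, just before its start. The peak covered 3.44% of the window in MGE, 8.27% in LGE, 7.26% in CGE and 5.71% in CTX. In MGE and CTX it ended upstream of the start (at −0.220 and −0.118 kb), and in CGE and LGE it reached 0.362 and 0.586 kb into the gene and over 3 of the 7 transcript starts. Promoter coverage was 38.9% in MGE, 64.2% in LGE, 64.0% in CGE and 64.6% in CTX, so MGE alone fell below the 50% used for a marked promoter. The fold was 3.92 in MGE, 3.22 in LGE, 3.71 in CGE and 4.35 in CTX, among the higher folds of the lists (62.4 to 95.3 percentile), and the −log10 q was 7.90, 5.47, 15.1 and 12.3 in the same order. At *Igf2*, in the same cluster, the peaks were inside the gene, had lower folds in every list, and the longest of them was wider than the *H19* peak in each. The RefSeq promoter table used here was matched for 9 of the 10 genes, and *H19* was not among them.

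*Meg3* (chromosome 12, 109541001 to 109571726, plus strand) had the peaks that were least alike between regions among the 8 genes with a peak in every list. It was covered over 2.41% of its window in MGE, 1.80% in LGE, 3.96% in CGE and 6.70% in CTX, and no base was covered in all 4 lists, against 64.9% of the covered bases of *Dlk1*, its neighbour. A peak over the start, within −1.05 and 0.664 kb, was present in MGE (−log10 q 1.60), LGE (2.24) and CTX (7.21) and missing from CGE. It spanned the start in MGE and CTX only. Coverage of the upstream 2 kb was accordingly 52.6% in MGE, 17.9% in LGE, 0% in CGE and 48.2% in CTX. The RefSeq *Meg3* promoter 1, at the start, had 13 CpG and a CpG ratio of 0.60 and was covered over 100% in MGE and CTX and 0% in CGE and LGE. Inside the gene, CGE and LGE shared a peak at 4.95 to 6.58 kb, CGE had another at 11.9 to 12.4 kb, and CTX had one at 15.1 to 16.9 kb. All of these were weak, and with a q-value under 0.001 only the CTX peak at the start was left, covering 3.21% of the window.
Meg3 promoter 1, chr12:109540746-109541045, plus strand: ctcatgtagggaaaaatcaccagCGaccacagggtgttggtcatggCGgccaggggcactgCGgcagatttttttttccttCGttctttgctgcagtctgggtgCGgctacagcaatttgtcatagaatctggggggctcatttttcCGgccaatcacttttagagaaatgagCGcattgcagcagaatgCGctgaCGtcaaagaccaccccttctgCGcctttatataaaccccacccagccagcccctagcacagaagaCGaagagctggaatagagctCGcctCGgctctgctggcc

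*Mest* and *Nnat*, both expressed from the paternal allele, were the genes without a peak in MGE, CGE and LGE. *Mest* encodes a membrane protein of the hydrolase fold family and lies on chromosome 6 (30723547 to 30748465, plus strand). In CTX a peak of 1238 bases (chr6:30732911-30734148) covered 2.76% of the window, with a −log10 q of 1.93 and a fold of 2.78, so it was among the weaker peaks of the CTX list (23.2 percentile by q). The peak lay over *Mest* promoter 1 of RefSeq, at 9.96 kb, which it covered over 100%. That promoter is CpG-poor, with 8 CpG and a ratio of 0.33. *Mest* promoters 2 and 3, both at 14.5 kb and nearly the same stretch, had 17 CpG each and ratios of 0.59 and 0.61, and no covered base in any list. The nearest peak to the *Mest* 5′ end lay 29.7 kb upstream in MGE and 47.6 kb upstream in CGE, both over the adjoining gene *Cep41*. In LGE it lay 234 kb downstream, over the imprinted gene *Klf14*. *Copg2*, which overlaps the end of *Mest*, was free of peaks inside the window.
Mest promoter 1, chr6:30733256-30733555, plus strand: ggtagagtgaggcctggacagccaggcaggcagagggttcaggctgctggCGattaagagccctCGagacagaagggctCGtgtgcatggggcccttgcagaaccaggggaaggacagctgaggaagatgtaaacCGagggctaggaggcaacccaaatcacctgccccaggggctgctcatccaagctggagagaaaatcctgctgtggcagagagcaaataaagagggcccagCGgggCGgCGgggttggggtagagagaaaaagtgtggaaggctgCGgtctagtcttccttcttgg
Mest promoter 2, chr6:30737800-30738099, plus strand: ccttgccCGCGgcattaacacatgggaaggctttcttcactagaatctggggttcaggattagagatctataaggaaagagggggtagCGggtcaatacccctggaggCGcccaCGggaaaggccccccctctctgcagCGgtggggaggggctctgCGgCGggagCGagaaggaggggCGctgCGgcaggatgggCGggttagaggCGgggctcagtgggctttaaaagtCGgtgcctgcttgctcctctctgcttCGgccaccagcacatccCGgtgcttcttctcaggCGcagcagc

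*Nnat* encodes neuronatin, a small membrane protein of neural progenitors and neurons. It lies on chromosome 2 (157560078 to 157562522, plus strand) inside the gene *Blcap*, and neither of them had a covered base in the window. The nearest peak was upstream in every list, at 142 kb in MGE, 14.6 kb in LGE, 14.3 kb in CGE and 17.5 kb in CTX. The RefSeq *Nnat* promoter is CpG-rich, with 17 CpG and a ratio of 0.69. It is shown for comparison with those of *Phlda2*, covered in every list, and *Plagl1*, covered in MGE and CGE.
Nnat promoter 1, chr2:157559828-157560127, plus strand: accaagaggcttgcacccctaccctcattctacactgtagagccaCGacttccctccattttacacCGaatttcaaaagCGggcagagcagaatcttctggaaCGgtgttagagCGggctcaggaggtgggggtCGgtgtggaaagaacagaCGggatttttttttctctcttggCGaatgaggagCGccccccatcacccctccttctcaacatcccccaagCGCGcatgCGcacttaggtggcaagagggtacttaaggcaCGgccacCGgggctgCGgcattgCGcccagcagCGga

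Over the 16 RefSeq promoters of the 9 genes, coverage did not follow CpG content in any simple order. Using the same call of at least 50% covered, 6 were marked in MGE (15.0% of 32619 promoters over the genome), 4 in LGE (15.8%), 6 in CGE (16.3%) and 7 in CTX (17.4%). Those marked in all 4 lists were *Igf2* promoter 3, *Dlk1* promoter 1 and *Phlda2* promoter 1, with CpG ratios of 0.90, 0.43 and 0.82. No base was covered in any list at 7 promoters, whose ratios ran from 0.06 (*Meg3* promoter 2) to 0.97 (*Grb10* promoter 1). Over the genome, promoters with a ratio of at least 0.6 were marked more often (25.7% in MGE, 27.3% in LGE, 26.3% in CGE and 30.5% in CTX) than those below it (8.92% in MGE, 9.34% in LGE, 10.6% in CGE and 9.93% in CTX). A ratio of at least 0.6 was found in 8 of the 16 promoters and in 36.0% of all. The letters TGCCGC, the core of the motif bound by ZFP57, a protein that maintains imprints at methylated sites, were searched on both strands. They occurred in 7 of the 16 promoters (43.8%), in 24.3% of the CpG-richer promoters over the genome and in 11.7% of all. Of the promoters printed above, *Grb10* promoter 1, *Meg3* promoter 1, *Plagl1* promoter 1 and *Nnat* promoter 1 held 1 match each and *Mest* promoter 2 held 2. *Mest* promoters 2 and 3 overlap and share theirs, and a match is a description of the letters, not of binding.

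**Figure D3:**
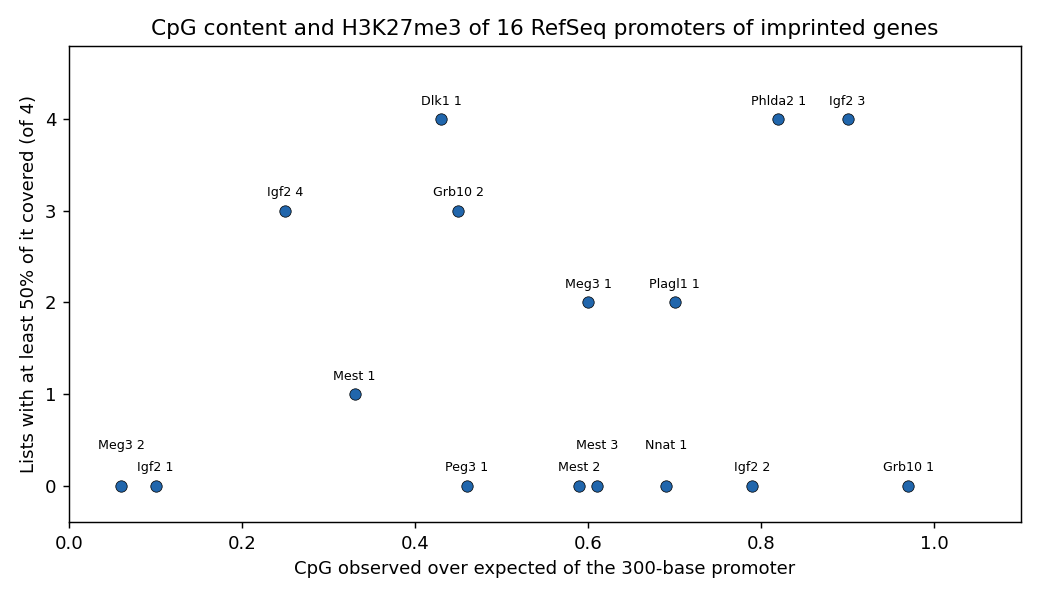
CpG observed over expected ratio of each of the 16 RefSeq promoters (300 bases, horizontal axis) against the number of lists in which at least 50% of the promoter was covered (vertical axis, of 4 lists). *Igf2* 3 and *Phlda2* 1 at ratios of 0.90 and 0.82 lie at 4 lists, as does *Dlk1* 1 at 0.43, while *Grb10* 1 at 0.97 lies at 0.

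Set by strength, the peaks fell into distinct kinds. Those of *Phlda2* and the 5′ peak of *Plagl1* were high in their lists both by q and by fold. The peaks inside *Igf2* were high by q and low by fold. The peak at the start of *Dlk1* was as high by q (86.9 to 89.9 percentile) and at the 14.5 to 41.4 percentile by fold. The longest *Igf2* peak measured 2841 bases in MGE, 4526 in LGE, 4540 in CGE and 7311 in CTX. The *Grb10* peaks near the 5′ end shared the low fold. The *H19* peak was high by fold and moderate by q, and the peaks of *Meg3*, *Peg3* and *Mest* were mostly low by q.

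**Figure D4:**
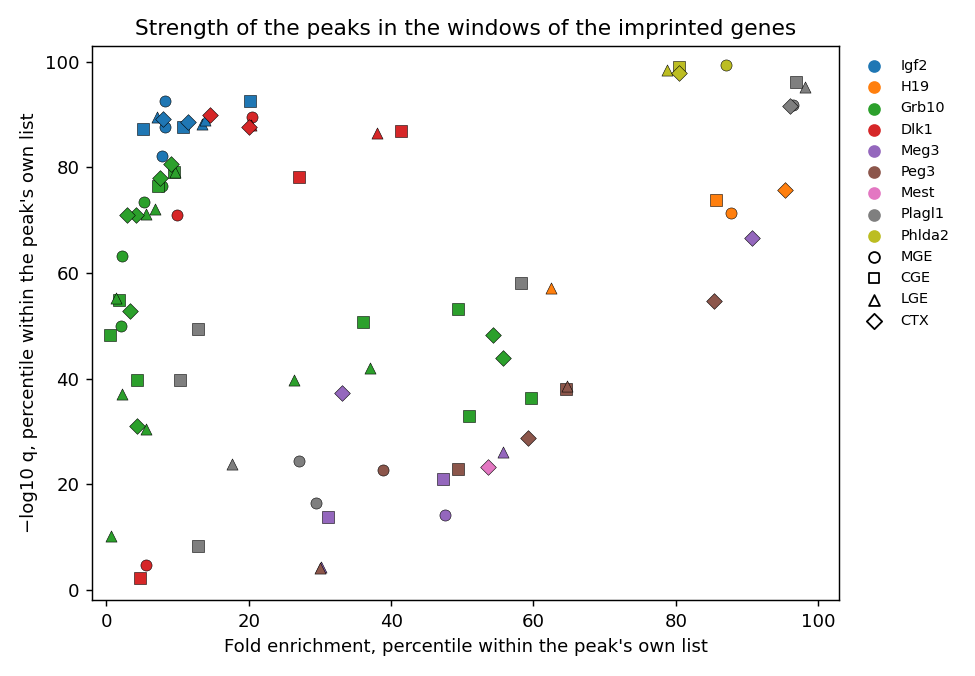
Percentile of each peak within its own list, by fold enrichment (horizontal axis) and by −log10 q (vertical axis), with colour for the gene and symbol shape for the region. The 4 *Phlda2* peaks lie between the 97.8 and 99.4 percentile by q, and the *Igf2* peaks lie high by q (82.2 to 92.6) and low by fold (5.13 to 20.2).

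The covered bases lay mainly inside the genes. Introns held 59.4% to 63.6% of them, against 45.6% of all window bases, exons 19.5% to 24.0% (against 14.0%) and the upstream 2 kb 9.76% to 14.7% (against 4.04%). The remaining upstream flank held 1.02% to 4.37% (against 16.2%) and the downstream flank 2.26% to 3.27% (against 20.2%). *Dlk1* was the gene with most of its covered bases in exons (53.9% to 67.2%), *H19* in the promoter (68.7% to 100%), and *Igf2*, *Grb10*, *Plagl1* and *Peg3* in introns (62.1% to 100% over these genes and lists). The *Mest* peak of CTX was intronic over 82.9%.

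The next question was how far the regions shared their peaks at the imprinted genes. When overlapping peaks of the lists were joined, the windows held 29 separate stretches, of which 12 (41.4%) were in all 4 lists, 5 in 3, 4 in 2 and 8 in 1. Over the genome, 34.0% of 28403 stretches were in all 4 and 38.7% in 1. Of the bases covered at the 10 genes, 42.3% were covered in all lists, against 33.0% over the genome. By gene this share ranged from 74.1% at *Phlda2*, 65.0% at *Igf2* and 64.9% at *Dlk1* through 44.3% at *Grb10*, 38.9% at *H19*, 26.8% at *Peg3* and 17.5% at *Plagl1* to 0% at *Meg3* and *Mest*. With few loci, of which *Grb10* held 20859 of the covered bases, these shares are descriptions of the lists.

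Regions were then compared pairwise in the windows by the Jaccard index, which divides the bases that 2 lists share by all the bases under peaks of the pair. It was 71.8% for LGE and CTX, 64.8% for CGE and LGE, 62.7% for LGE and MGE, 61.5% for CGE and MGE, 57.3% for CGE and CTX and 57.2% for MGE and CTX. LGE and CTX were thus the most similar pair at these genes, whereas over the genome their index was 54.5% and that of CGE and LGE was highest, at 60.1%. The index of LGE and CTX was also the highest of the 6 without the *Grb10* window (67.4%, the others 52.9% to 65.5%) and with lists of equal covered bases (77.1%, the others 59.4% to 69.9%), 2 settings chosen after the data were seen. Inside *Plagl1* and upstream of *Dlk1*, MGE and CGE had peaks that LGE and CTX lacked, whereas *Meg3* and *Phlda2* divided the regions in other ways.

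A wider list of 66 other imprinted genes, all found in the annotation, was read with the same rules. A peak lay in the window of 39 (59.1%) in MGE, 42 (63.6%) in LGE, 47 (71.2%) in CGE and 45 (68.2%) in CTX. The share was 27.6% to 30.4% over all genes and 43.3% to 47.2% over protein-coding genes. The windows of the 66 genes were wide, with a median of 60.3 kb (20.9 to 492 kb). Of these, 9 overlapped a window of the 10 genes, so that peaks can be counted in both. Some also overlapped one another, as at *Igf2r* and *Airn*, so that a peak can be counted more than once within the list. The promoter was marked for 11 in MGE, 11 in LGE, 13 in CGE and 12 in CTX (16.7% to 19.7%, against 4.07% to 5.19% of all genes). Protein-coding genes alone were not counted for promoters. A window with a peak in every list was found for 37 genes, where 22.1% of all genes had one (not computed over protein-coding genes alone). For 16 genes no list had a peak in the window. As at the 10 genes, most promoters were not marked: 35 had no covered base in any list, and 10 were marked in all. *Cdkn1c*, a cell cycle inhibitor close to *Phlda2*, was covered over 19.3% of its window in MGE, 20.5% in LGE, 22.7% in CGE and 17.4% in CTX, with no covered base in the upstream 2 kb.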

How the data were processed

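H3K27me3 CUT&Tag was measured in 11 samples of 4 regions. Reads had been mapped by the authors to GRCm38 (mm10) using Bowtie2; they then removed blacklisted regions and PCR duplicates (Picard), merged the samples of each region with SAMtools and called broad peaks with MACS, whose version and control are not given in the sources used here. The extraction protocol also mentions pooling equal numbers of nuclei of the regions. The lists were taken as those of the labelled regions. In CTX, CGE and LGE a pair of samples shares a replicate number. The study describes 2 biological replicates per region, of tissue pooled from several embryos, so such a pair is not taken as separate replicates. The deposited lists give a score (not used), a fold enrichment as a ratio to local background, and the −log10 of a p-value and of a q-value for each peak, as the authors' caller wrote them. The lowest −log10 q was 1.00. No reads per peak are listed, so no counting interval is given. The study states reads for each replicate, and summed over replicates these were lowest for MGE and highest for CGE, the shortest and the longest list.

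Genes came from GENCODE M21 on GRCm38 and promoters from RefSeq (GRCm38.p6). Peaks on the mitochondrial genome (2 to 4 per list) were left out. Coverage, positions and overlaps were computed with Python 3.11.15 and numpy 2.4.6, in scripts checked on simulated peaks. Coordinates count from 1. No test was run, since each region is 1 list. All 10 genes were named, with coding genes under their peaks, the genes of the region check and, of the other imprinted genes, up to 8 with a promoter marked in all lists and up to 8 marked in some and free in others, ranked by window coverage. *Cdkn1c* and the neighbours without peaks were added after their values were seen. The genes and lists were chosen with earlier results of these data known. Alternatives were a q-value under 0.001, joined peaks (under 3 kb apart), equal numbers of peaks (15384), equal covered bases, flanks of 0, 5 and 50 kb, at least 500 covered bases, and other promoter calls.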

Additional observations from a re-analysis of the deposited data

How the results depend on the processing

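The number of genes with a peak in a list moved by less than 1.5 times under every alternative, and 97 of 108 summary values stayed within 1.5 times. Part of this was fixed in advance. Counts of 8 or 9 of 10 genes could not rise by 1.5 times, and joining peaks cannot remove a gene. The 108 values also include the Jaccard indices under settings chosen after the data were seen. The count of marked promoters moved most. With any 1 covered base it was 6 in MGE, 6 in LGE, 5 in CGE and 6 in CTX, with the best covered 5′ end of any transcript 4, 4, 6 and 6 in the same order, with 2 kb either side of the 5′ end 4 in CGE, and with a q-value under 0.001 it was 1 in MGE, where *Meg3* was lost. Over the gene body alone the median coverage in CGE was 12.2%. Of 280 values of single genes, 82 moved by more than 1.5 times, 36 up and 46 down. The order of the genes by coverage changed with the flank. Over the gene body alone, *Phlda2* was covered over 100% in every list and *Igf2* over 42.0% to 61.7%. With 50 kb either side, *Igf2* (5.81% to 8.53%) was below *Dlk1* (8.48% to 9.66%) in every list, and *Meg3* was highest in CTX (11.8%). Genes with a peak in all 4 lists were 6 both with a q-value under 0.001 and with equal covered bases (*Igf2*, *H19*, *Grb10*, *Dlk1*, *Plagl1* and *Phlda2* in either case), and *Mest* then had no peak in any list. *Meg3* was left with a peak in CTX alone in the former case, and *Meg3* and *Peg3* had none in CGE in the latter. Over the gene body alone, *H19* had a peak in CGE and LGE only. With 50 kb either side, *Nnat* gained peaks in CGE, LGE and CTX and *Mest* in MGE and CGE. The cause of these changes was not tested beyond the alternatives' own construction. No sample could be left out and no paired analysis was possible because peaks were called on merged samples. Weak peaks, as at *Meg3*, *Peg3* and *Mest*, could be missed in a list made from fewer reads, which was not tested. The reads stated in the study were fewest for MGE and most for CGE. The *Meg3* peak at the start was missing from CGE alone and the *Peg3* peak past the gene's end from MGE alone. The *Mest* peak was missing from MGE, CGE and LGE.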

Other observations

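Some imprinted genes outside the 10 carried H3K27me3 over their promoters in all lists. Of the 10 such genes, the 8 with the most coverage were *Dio3*, *Igf2os*, *Ascl2*, *Zdbf2*, *Kcnk9*, *Sfmbt2*, *Rasgrf1* and *Cobl*. *Igf2os* lies over *Igf2*, and its coverage comes from peaks already counted there. *Dio3*, which encodes the enzyme that inactivates thyroid hormone and lies at the far end of the *Dlk1* and *Meg3* cluster, was covered over 31.7% of its window in MGE, 27.6% in LGE, 33.0% in CGE and 38.1% in CTX, with 100% of the promoter covered. *Ascl2*, a transcription factor gene of the placenta between *Igf2* and *Phlda2*, was covered over 20.2% to 21.7%, and *Zdbf2* over 16.4% to 21.9%.

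A promoter marked in some lists and free of covered bases in another was seen at 3 genes. How often this occurs over all genes was not computed. The *Klf14* promoter, downstream of *Mest* on chromosome 6, was covered over 100% in MGE, 0.350% in LGE, 100% in CGE and 0% in CTX, although its window was covered over 17.3% to 28.8% in every list. The *Herc3* promoter was covered over 22.1% in MGE, 61.5% in CGE and 0% in LGE and CTX, and that of *Sgce* over 66.2% in CTX and 0% elsewhere. The promoters of *Klf14* and *Herc3* thus had coverage in MGE and CGE and nearly none in LGE and CTX. The same held for the RefSeq promoter of *Plagl1*, a shorter stretch inside that gene. It did not hold for the upstream 2 kb of *Plagl1* (0.450% in MGE, 3.95% in LGE, 13.3% in CGE and 18.0% in CTX). Promoters of the wider list that were marked in no list went both ways. That of *Dcn* was covered over 28.4% in MGE, 15.8% in CGE and 0% in LGE and CTX. The reverse was seen at *Nap1l5*, which lies inside *Herc3* (0% in MGE and CGE, 30.1% in LGE and 24.4% in CTX). It was also seen at *Nap1l4* (0% in MGE and CGE, 21.1% in LGE and 11.0% in CTX). *Klf14*, *Herc3* and *Sgce* were ranked by coverage, and no contrast between lists was tested.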
